A study of Mus musculus with 12 samples.

Results

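The genes described here are 10 genes of the cyclic AMP (cAMP) and protein kinase A (PKA) pathway that holds the mammalian oocyte in meiotic arrest: Gpr3, Gpr12, Gnas, Adcy3, Pde3a, Prkaca, Prkar2b, Akap1, Akap7 and Rgs2. They were taken by gene symbol from an FPKM table of 24254 genes (fragments scaled to transcript length and to library size), and all 10 symbols had a row. The libraries came from fully grown, arrested mouse oocytes (germinal vesicle stage), with 80 oocytes pooled in each. There were 4 wild-type libraries (WT), 4 from mice with a gene trap in Marf1 (GTMut) and 4 from mice with the Marf1 mutation named D272 (D272Mut), 12 in all. Marf1 encodes an RNA-binding endoribonuclease needed for meiosis in female mice. All 3 groups shared the C57BL/6 strain, an age of 3 weeks, and priming with 5 IU of PMSG, a gonadotropin that makes follicles grow, 46 hours before collection. No group was without PMSG, and the labels do not say whether libraries of a genotype came from different mice, so the p-values below measure the spread between these libraries, which may be technical.

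In the arrested oocyte, constitutively active receptors of the GPR3 family act through the stimulatory G protein alpha subunit, encoded by Gnas, on adenylyl cyclase, which makes cAMP. The phosphodiesterase PDE3A breaks cAMP down, and it is held back by cGMP that reaches the oocyte from the surrounding granulosa cells through gap junctions. cAMP releases the catalytic subunits of PKA from its regulatory subunits, anchor proteins place the kinase in the cell, and PKA keeps the cell cycle kinase CDK1 off through WEE2 and CDC25B until luteinizing hormone lifts the block.

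The mutated gene Marf1 was at 25.8 ± 0.63 FPKM in WT, against 1.43 ± 0.13 in GTMut and 53.1 ± 1.0 in D272Mut (SD, n = 4 each, as for every mean ± SD below). The low level in GTMut goes with the gene trap label, while the D272 label gives no RNA level to check against. The FPKM of 12 oocyte marker genes summed to between 12356 and 12465 in the WT libraries, between 10415 and 10929 in GTMut, and between 10248 and 10397 in D272Mut, and none of them had a mean under 1 FPKM. Of these 12 markers, 9 fell and 1 rose in GTMut, and 8 fell and 2 rose in D272Mut. By the limma test described below, 39.2% of all genes tested fell and 38.3% rose in GTMut, and 39.5% and 36.3% in D272Mut. The FPKM of 13 cumulus and granulosa cell markers summed to 45.0 to 49.9 in WT, against 147 to 162 in GTMut and 144 to 146 in D272Mut. Nr5a2 rose from 26.5 FPKM in WT to 134 in GTMut and 118 in D272Mut. Without Nr5a2 the sums for WT, GTMut and D272Mut were 18.6 to 22.6, 19.6 to 23.5 and 25.2 to 29.3. Of the 13, 5 had means under 1 FPKM in every genotype, Foxl2 and Amhr2 among them. For WT, GTMut and D272Mut in turn, Cyp19a1 of the 13 was at 11.7, 4.90 and 6.53 FPKM, and Kitl at 2.63, 11.7 and 11.6. In the same order Inha was at 2.06, 1.24 and 2.17 FPKM, Amh at 1.1, 0.517 and 1.39, and Inhba at 0.111, 1.79 and 0.999. Of 9 granulosa markers tested, 3 rose and 3 fell in GTMut, and 4 rose and 2 fell in D272Mut. Of all genes tested, 77.5% and 75.7% were called in either direction. Fshr reached 1 FPKM in WT libraries only, Inhba in mutant libraries only and Hsd17b1 in D272Mut only. These markers thus entered the test through the group where they were high. Summed FPKM of 10 theca, stroma, endothelium and leukocyte markers spanned 22.5 to 24.5, 13.1 to 13.9 and 13.6 to 15.8. Pecam1 held 20.7, 11.4 and 11.7 of these, and 8 of the 10 had means under 1 FPKM throughout. The share of RNA from granulosa and these other cells in the results below was not tested. Relative depth, read from the step between low values, differed 2.25-fold between the deepest and the shallowest library, and the ranges of the genotypes overlapped. The absolute depth is unknown. In pooled oocytes, fewer cells that express a gene and less of its RNA per cell cannot be told apart.

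In both mutants most of the arrest genes were at a lower level than in WT. The receptor genes Gpr12 and Gpr3 stood at 35.5% and 40.2% of their WT means in GTMut, and at 46.4% and 62.9% in D272Mut. The anchor gene Akap7 stood at 43.7% and 49.2%, the G protein gene Gnas at 66.4% and 60.6%, and the phosphodiesterase gene Pde3a at 59.0% and 64.5%. The PKA catalytic subunit gene Prkaca and the anchor gene Akap1 moved least. Of the 10 genes, 9 passed the filter of at least 1 FPKM in any library and were tested. Adcy3 did not pass. Against WT, 9 of the 9 were lower in GTMut (limma, Benjamini-Hochberg adjusted p under 0.05), where 39.2% of the 12980 genes tested were called lower, 38.3% higher and 77.5% in either direction. In D272Mut 8 of the 9 were lower and Prkaca did not pass, where 39.5% of all genes tested were called lower, 36.3% higher and 75.7% in either direction. In each mutant the libraries of 8 of the 9 did not overlap those of WT, as in 72.9% of all genes tested for GTMut and 69.1% for D272Mut, in either direction. The oocyte markers fell alongside, 9 of 12 in GTMut and 8 of 12 in D272Mut, and their part in the fall of the arrest genes was not tested. Both mutants were compared with the same WT libraries, so these counts are not independent of each other. The median log2 fold change of the 9 was -0.63 in GTMut and -0.61 in D272Mut, and over all genes tested it was -0.02 and -0.05. Fold changes here are differences of log2(FPKM + 1), which understate the change of genes at low levels. In GTMut 2 of the 9, Gpr3 and Akap7, were at least 2-fold lower on this scale, as were 9.61% of all genes tested. In D272Mut none of the 9 was, against 5.9% of all genes tested.

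**Figure D1:**
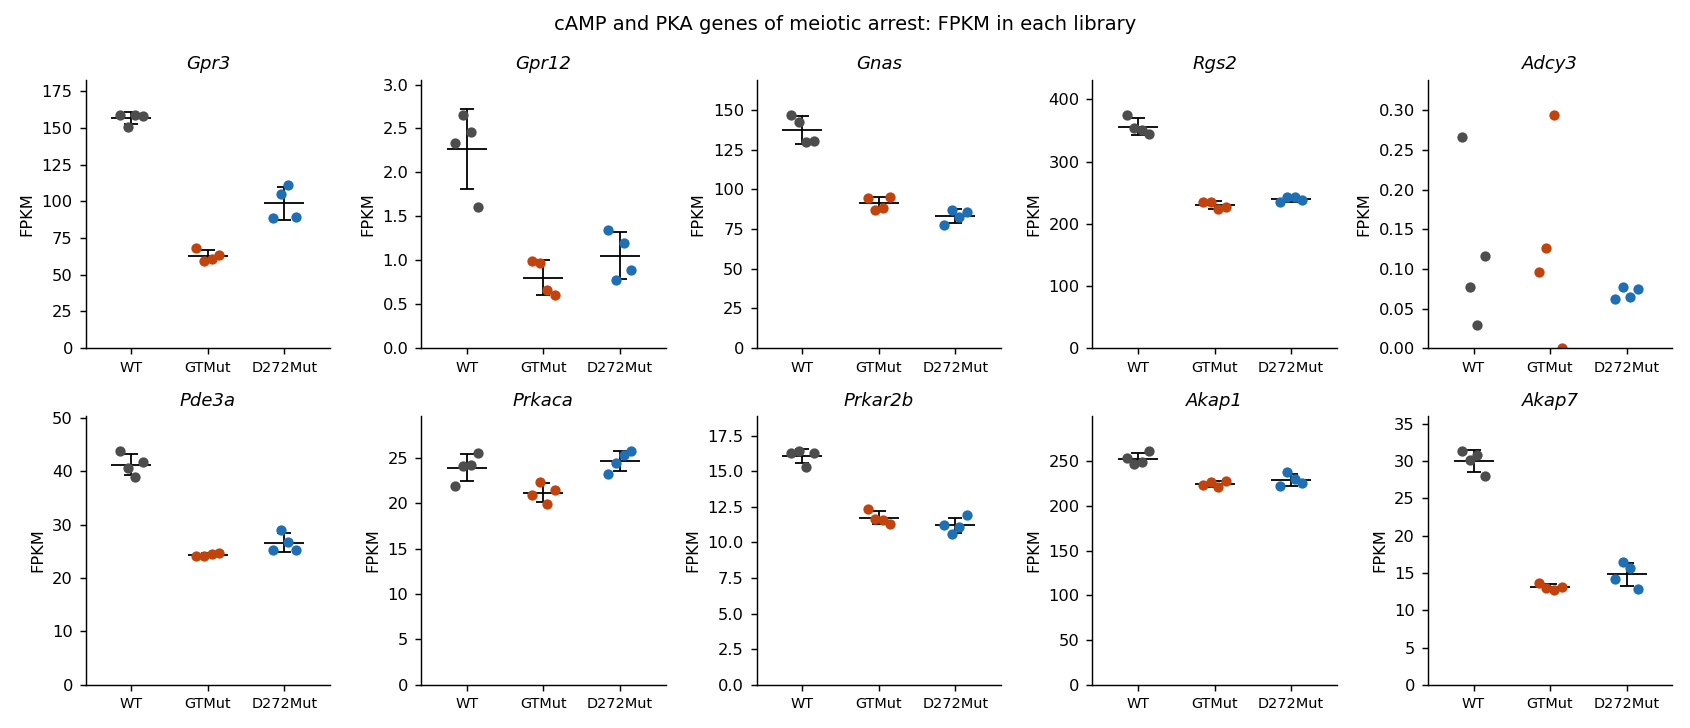
FPKM of each of the 10 genes in each library, in 1 panel per gene with its own axis from 0. Points are the 4 libraries of a genotype, and the line with bars is their mean ± SD, left out for Adcy3, which is listed at 0 in 1 library. All mutant libraries lie below all WT libraries in 8 panels, while in the Prkaca panel WT overlaps both mutants, which do not overlap each other.

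The pathway starts at the receptors. Gpr3, the receptor that maintains the arrest in mouse oocytes, measured 159, 151, 159 and 158 FPKM in the WT libraries. The GTMut libraries held 68.4, 59.4, 60.7 and 63.6 FPKM, and the D272Mut libraries 88.6, 105, 111 and 89.6 FPKM. Each genotype formed a band of its own, with D272Mut between GTMut and WT and no overlap between any 2 of the 3. The log2 fold change against WT was -1.30 ± 0.07 in GTMut (SE, limma adjusted p = 4.81e-10) and -0.67 ± 0.07 in D272Mut (adjusted p = 8.11e-07). Among the genes tested, 5.15% had a lower log2 fold change than Gpr3 in GTMut and 16% in D272Mut. WT replicate 2 was the lowest of its group, and with it left out both calls held. Gpr3 lies at chr4:133209340-133212536 on the minus strand (GRCm38, the same build as mm10) and shares 204 bases, 7.46% of its exon bases, with Cd164l2 on the opposite strand. Cd164l2 measured 250 FPKM in WT, against 206 in GTMut and 252 in D272Mut, and without strand information reads in the shared stretch could belong to either gene.

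Gpr12 encodes a close relative of GPR3 that acts in rat oocytes, and it was measured far lower, at 2.33, 2.66, 2.46 and 1.61 FPKM in WT. It was at 0.987, 0.965, 0.663 and 0.599 FPKM in GTMut and 1.35, 0.781, 1.19 and 0.886 FPKM in D272Mut. All 8 mutant libraries lay below all 4 WT libraries, and the mutants overlapped each other. Its log2 fold change was -0.85 ± 0.14 in GTMut (limma adjusted p = 5.75e-05) and -0.67 ± 0.14 in D272Mut (adjusted p = 5.14e-04). Only 6 libraries reached 1 FPKM, the 4 of WT and 2 of D272Mut, so Gpr12 entered the test through those groups. With a pseudocount of 0.1 its log2 fold changes were -1.39 and -1.04. It lies at chr5:146582398-146585239 on the minus strand. Gpr3 was 71.9 ± 18 times Gpr12 in FPKM in WT, against 82.2 ± 20 times in GTMut and 98.6 ± 28 times in D272Mut. Gpr6, the other receptor of the family, was listed at 0 in all 12 libraries.

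Gnas carries the receptor signal to the cyclase. It measured 147, 143, 130 and 130 FPKM in WT, 94.6, 87.1, 88.2 and 95.1 FPKM in GTMut, and 77.5, 87.4, 82.5 and 85.5 FPKM in D272Mut. Every mutant library was below every WT library, and the ranges of the mutants overlapped at their edges. The log2 fold change was -0.58 ± 0.05 in GTMut (limma adjusted p = 1.56e-07) and -0.72 ± 0.05 in D272Mut (adjusted p = 2.00e-08). Gnas is a locus with several promoters whose products include the stimulatory alpha subunit and other proteins, and the single FPKM value per library does not separate them. It lies at chr2:174284320-174346744 on the plus strand, where on the opposite strand Nespas covers 8.83% and Gm20721 covers 13.13% of its exon bases. Nespas itself was at 0.717 FPKM in WT, against 2.19 in GTMut and 2.03 in D272Mut.

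Rgs2, a regulator that speeds the shut-off of G proteins and in mouse oocytes restrains premature calcium release, had the highest level of the 10 genes in WT, at 375, 354, 351 and 344 FPKM. It was at 236, 235, 223 and 227 FPKM in GTMut and at 234, 243, 243 and 238 FPKM in D272Mut. The mutants overlapped each other and lay more than 100 FPKM below the lowest WT library. Against WT, Rgs2 had a log2 fold change of -0.63 ± 0.03 in GTMut (limma adjusted p = 4.68e-10) and -0.57 ± 0.03 in D272Mut (adjusted p = 1.64e-09). Rgs2 lies at chr1:143999338-144004161 on the minus strand.

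The genes around Gnas and Rgs2 moved in both directions. The counts by role that follow stand against the shares of all genes tested, 38.3% higher, 39.2% lower and 77.5% in either direction in GTMut, and 36.3%, 39.5% and 75.7% in D272Mut, and the number of genes in each role is small. Of 16 tested G protein genes and regulators in the wider list, 9 fell and 6 rose in GTMut, and 9 fell and 7 rose in D272Mut. Among them the faller Rgs7 reached 1 FPKM in WT only and the riser Rgs9 in D272Mut only. Both thus entered the test through the group where they were high. Gna11, a G protein alpha subunit that acts on phospholipase C, rose from 2.61 ± 0.49 FPKM in WT to 48.1 ± 2.4 in GTMut and 42.2 ± 2.1 in D272Mut. Ric8b, a chaperone of stimulatory alpha subunits, rose from 1.43 ± 0.39 to 12.9 ± 0.25 and 8.51 ± 0.61 FPKM. Gnai1, an inhibitory alpha subunit that opposes adenylyl cyclase, fell from 33.9 ± 3.0 to 12.2 ± 1.5 and 16 ± 0.46 FPKM. The inhibitory subunit genes Gnai2 and Gnai3 fell too, from 61.7 and 59.9 FPKM in WT to 45.0 each in GTMut and 37.9 and 44.7 in D272Mut. Rgs17, another regulator of the RGS family, fell from 22.3 ± 0.58 to 9.40 ± 0.64 and 15.5 ± 0.63 FPKM. Summed over Gnas and its relatives Gnai1, Gnai2 and Gnai3, the level was 293 ± 12 FPKM in WT, against 193 ± 6.9 in GTMut and 182 ± 5.3 in D272Mut, and Gnas held 46.9%, 47.2% and 45.7% of it.

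A search of promoters for the site of CREB, the transcription factor that PKA phosphorylates, covered the 250 bases before each RefSeq start (GRCm38.p6) and both strands. The full cAMP response element TGACGTCA stood in 1.55% and its core TGACG in 17.8% of the 32851 promoter windows of the table, and a full element always holds the core. The table had 19 windows for 9 of the 10 genes and none for Pde3a. None of the 19 held the full element, and 6 windows of 4 genes, Gpr3, Gnas, Rgs2 and Prkaca, held the core. The Gnas windows chr2:174327499-174327748 and chr2:174327518-174327767 overlap and hold the same core, so that site is counted in both. The windows of Gpr3, Rgs2 and Prkaca are printed because, among the 10 genes, these carry the core in 2 places. Windows of Akap11, Ric8b, Gja1 and Impdh2 of the wider list also carry it more than once and are not printed. That of the PKA regulatory subunit gene Prkar1a is printed for its full element, the only one among the 80 windows of these and the other pathway genes named. The Gpr3 window is chr4:133212537-133212786 on the minus strand, the Rgs2 window chr1:144004150-144004399 on the minus strand, the Prkaca window chr8:83972728-83972977 on the plus strand and the Prkar1a window chr11:109650699-109650948 on the plus strand. Each reads 5′ to 3′ along its gene's strand, and capitals mark TGACG, its complement CGTCA or the full element.
Gpr3: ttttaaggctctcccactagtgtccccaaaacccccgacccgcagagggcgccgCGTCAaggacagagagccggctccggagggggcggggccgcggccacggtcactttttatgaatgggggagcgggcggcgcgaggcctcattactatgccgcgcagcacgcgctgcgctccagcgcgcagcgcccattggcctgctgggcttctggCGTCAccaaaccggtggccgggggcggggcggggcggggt
Rgs2: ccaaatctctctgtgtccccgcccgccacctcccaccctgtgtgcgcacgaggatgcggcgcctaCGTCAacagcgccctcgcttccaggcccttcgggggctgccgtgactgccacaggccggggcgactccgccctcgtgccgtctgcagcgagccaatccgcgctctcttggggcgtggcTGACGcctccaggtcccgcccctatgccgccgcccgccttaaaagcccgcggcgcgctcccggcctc
Prkaca: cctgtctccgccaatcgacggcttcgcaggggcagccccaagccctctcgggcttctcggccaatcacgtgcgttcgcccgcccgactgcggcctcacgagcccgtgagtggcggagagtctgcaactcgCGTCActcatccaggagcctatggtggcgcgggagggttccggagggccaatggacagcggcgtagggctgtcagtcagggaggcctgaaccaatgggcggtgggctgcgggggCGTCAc
Prkar1a: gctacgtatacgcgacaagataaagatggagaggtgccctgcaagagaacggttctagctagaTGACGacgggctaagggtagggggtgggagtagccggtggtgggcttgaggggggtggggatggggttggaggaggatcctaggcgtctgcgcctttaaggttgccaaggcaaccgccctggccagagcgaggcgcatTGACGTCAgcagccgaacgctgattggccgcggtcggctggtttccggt
The core in Gpr3 began 196 and 40 bases before the start, that in Rgs2 185 and 67 bases before it, that in Prkaca 120 and 6 bases before it, and the full element of Prkar1a 49 bases before it. A match describes the letters of the window and does not show a bound site. Gpr3, Gnas and Rgs2 fell in both mutants, Prkaca fell in GTMut and did not pass in D272Mut, and Prkar1a, at 49.0 ± 2.0 FPKM in WT, against 51.2 ± 2.1 in GTMut and 51.7 ± 3.5 in D272Mut, did not pass the test in either.

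Adcy3, an adenylyl cyclase described in rodent oocytes, was close to 0 in every genotype. It measured 0.267, 0.0773, 0.0289 and 0.116 FPKM in WT, 0.0967, 0.127, 0.295 and 0 in GTMut, and 0.0615, 0.0778, 0.065 and 0.0746 in D272Mut. No library reached 0.3 FPKM and the genotypes overlapped, so Adcy3 was not tested and no fold change is given. Adcy3 lies at chr12:4133103-4213525 on the plus strand, where Cenpo, a centromere protein gene on the opposite strand, covers 22.09% of its exon bases. Cenpo was at 50.9, 30.2 and 30.1 FPKM in WT, GTMut and D272Mut, and its part in the values of Adcy3 was not tested.

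Other cyclases held the family's level, and which of them did differed by genotype. Over 10 cyclase genes the summed level was 30.3 ± 2.2 FPKM in WT, against 59.9 ± 1.2 in GTMut and 82.2 ± 4.3 in D272Mut, of which Adcy3 made up 0.399%, 0.217% and 0.0848%. In WT the largest shares were those of Adcy5, a cyclase inhibited by calcium, at 43.6%, and Adcy9, at 29.4%. In GTMut these were 15.4% and 6.48%, and in D272Mut 14.8% and 5.80%. Adcy6, a close relative of Adcy5, took 4.26% in WT, against 52.4% in GTMut and 37.6% in D272Mut. Adcy1, a cyclase stimulated by calcium and calmodulin, took 6.13%, 19% and 37.3%.

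Adcy6 measured 1.06, 1.39, 1.16 and 1.56 FPKM in WT, against 32.1, 31.8, 30.7 and 30.8 in GTMut and 29, 34.2, 31.5 and 29.1 in D272Mut. Its log2 fold change was 3.82 ± 0.07 in GTMut (limma adjusted p = 1.19e-14) and 3.80 ± 0.07 in D272Mut (adjusted p = 1.65e-14). Adcy1 was at 1.96, 1.72, 1.7 and 2.04 FPKM in WT, 10.3, 11.2, 11.4 and 12.5 in GTMut, and 30.4, 32.1, 29.9 and 30.2 in D272Mut. All mutant libraries were above all WT libraries for both genes, and for Adcy1 D272Mut was also above GTMut, with a log2 fold change of 1.36 ± 0.07 between the mutants (limma adjusted p = 6.46e-09). Adcy9 fell in both mutants, from 8.88 ± 0.55 FPKM to 3.88 ± 0.37 and 4.77 ± 0.40. Adcy5 fell in GTMut, from 13.2 ± 1.0 to 9.21 ± 1.0 FPKM, and at 12.2 ± 0.97 in D272Mut it did not pass. Adcy8, the other calmodulin-stimulated cyclase, fell in GTMut, from 3.77 to 2.52 FPKM, and at 3.33 did not pass in D272Mut. Adcy2 fell in D272Mut, from 1.13 to 0.122 FPKM, and at 1.23 did not pass in GTMut. Of the 6 cyclases tested, 2 rose and 3 fell in GTMut, and 2 rose and 2 fell in D272Mut, so 5 and 4 of the 6 were called, beside 77.5% and 75.7% of all genes tested.

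**Figure D2:**
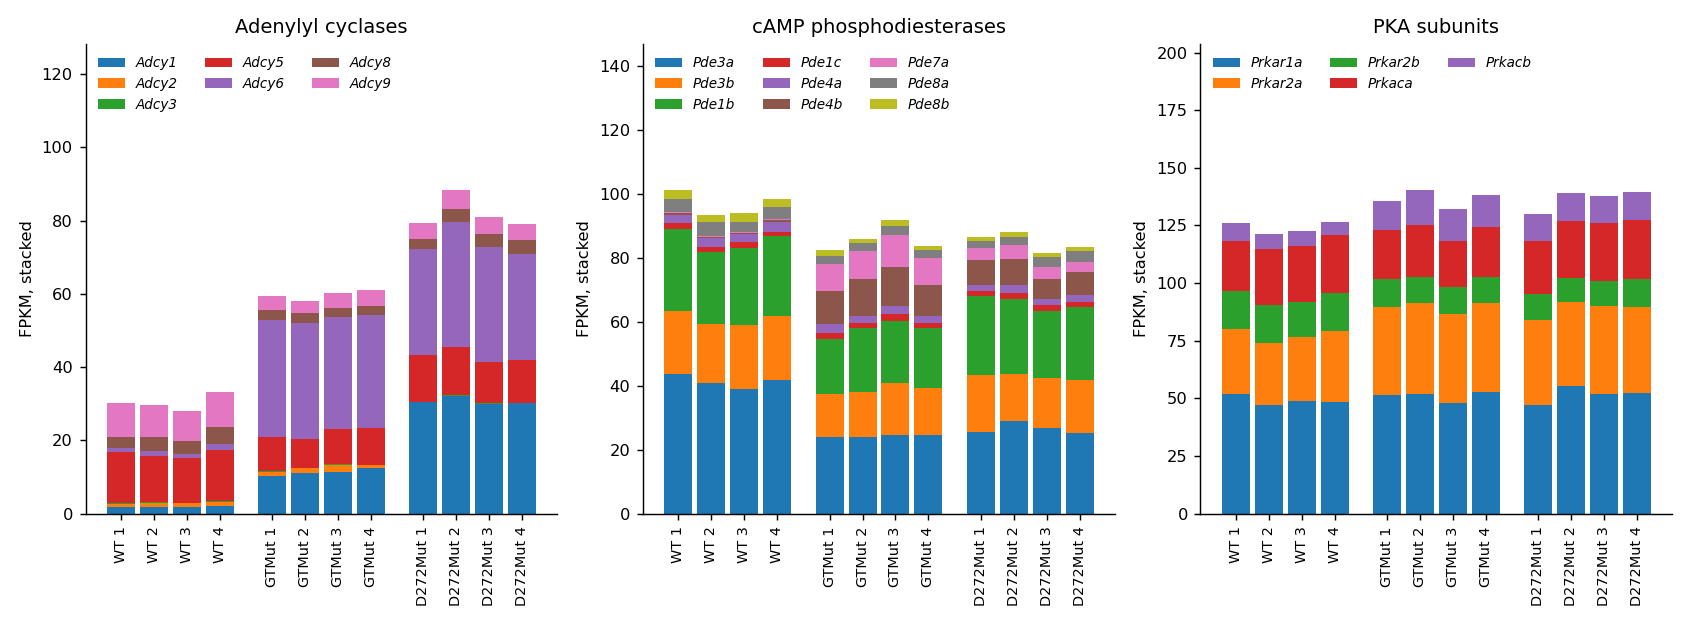
Stacked FPKM of adenylyl cyclase, cAMP phosphodiesterase and PKA subunit genes in the libraries, each bar divided among genes of its family. Over all 10 cyclase genes the summed level averaged 30.3 (WT), 59.9 (GTMut) and 82.2 FPKM (D272Mut). The rise in the mutants lies mainly in the Adcy6 and Adcy1 parts, and Adcy3 is too small to see.

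Pde3a, at chr6:141249269-141507448 on the plus strand, encodes the main cAMP phosphodiesterase of the oocyte. It was at 43.8, 40.7, 39 and 41.8 FPKM in WT, 24.1, 24.1, 24.6 and 24.7 FPKM in GTMut, and 25.4, 29.1, 26.8 and 25.3 FPKM in D272Mut. The 3 genotypes did not overlap, though the lowest D272Mut library was within 1 FPKM of the highest GTMut library. Its fold change on the log2 scale was -0.74 ± 0.05 in GTMut (limma adjusted p = 8.75e-09) and -0.61 ± 0.05 in D272Mut (adjusted p = 7.56e-08). The RNAs of the phosphodiesterase and of the receptor were thus both lower, but not by the same factor in GTMut. The ratio of Gpr3 to Pde3a FPKM ran from 3.63 to 4.08 in WT, against 2.47 to 2.84 in GTMut and 3.49 to 4.16 in D272Mut. The GTMut libraries lay below all others in this ratio, and the D272Mut and WT ranges overlapped.

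Across 16 cAMP phosphodiesterase genes the summed level was 101 ± 3.7 FPKM in WT, against 88.9 ± 4.1 in GTMut and 88.1 ± 2.8 in D272Mut. Pde3a held the largest share in each genotype, 40.9% ± 0.93 in WT, against 27.4% ± 1.1 in GTMut and 30.2% ± 1.8 in D272Mut. Pde4b, of the cAMP-specific family of phosphodiesterases, rose from 0.563 ± 0.19 FPKM in WT to 11 ± 1.2 and 7.36 ± 0.88. Pde7a, also specific for cAMP, rose from 0.163 ± 0.13 to 8.80 ± 0.79 and 3.78 ± 0.40 FPKM. Pde3b, the nearest relative of Pde3a, fell from 19.5 ± 0.65 to 14.5 ± 1.2 and 16.2 ± 1.4 FPKM, and the calmodulin-dependent Pde1b fell in GTMut, from 24.3 to 18.8 FPKM, but at 22.8 did not pass in D272Mut. Of the 12 tested besides Pde3a, 6 fell and 2 rose in GTMut, and 6 fell and 3 rose in D272Mut. All of the risers, Pde4b, Pde7a and in D272Mut Pde1a, reached 1 FPKM in mutant libraries only, and the fallers Pde2a and Pde4d in WT libraries only. These 5 thus entered the test through the group where they were high, which favours a difference. Pde2a also shares 64.32% of its exon bases with Gm45837 on the same strand, so its values are uncertain. The falls included Pde8a, from 3.84 FPKM to 2.67 and 2.70, and Pde8b, from 2.62 to 1.47 and 1.37, of a family with high affinity for cAMP. Pde4d, a relative of Pde4b, fell from 1.42 to 0.496 and 0.399 FPKM.

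Within PKA the catalytic and the regulatory gene moved apart. Prkaca, the main catalytic subunit gene (chr8:83972993-83996443, plus strand), measured 21.9, 24.1, 24.2 and 25.5 FPKM in WT, 20.9, 22.4, 19.9 and 21.4 FPKM in GTMut, and 23.2, 24.4, 25.3 and 25.7 FPKM in D272Mut. Its WT range overlapped both mutants, and the mutants did not overlap each other. The log2 fold change was -0.17 ± 0.06 in GTMut (limma adjusted p = 0.0131), a call lost when libraries were rescaled by their median ratio, at -0.13 (adjusted p = 0.0527). Quantile normalization moved it to -0.38. In D272Mut it was 0.04 with a 95% interval of -0.08 to 0.16 (limma adjusted p = 0.488), and quantile normalization turned it to -0.14 (adjusted p = 0.0308).

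Prkar2b, a regulatory subunit gene (chr12:31958476-32061296, minus strand), was at 16.3, 16.4, 15.3 and 16.3 FPKM in WT, 12.4, 11.6, 11.6 and 11.3 FPKM in GTMut, and 11.2, 10.6, 11.1 and 11.9 FPKM in D272Mut. All mutant libraries were below all WT libraries, and the mutants overlapped. Against WT the change was -0.42 ± 0.05 in GTMut (limma adjusted p = 5.06e-06) and -0.48 ± 0.05 in D272Mut (adjusted p = 1.34e-06), and -0.67 and -0.73 under quantile normalization. The ratio of Prkaca to Prkar2b FPKM was 1.49 ± 0.11 in WT, against 1.81 ± 0.12 in GTMut and 2.2 ± 0.11 in D272Mut.

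Of 5 other PKA subunit and inhibitor genes tested, 3 rose and none fell in GTMut, and 3 rose and 1 fell in D272Mut. Prkar2a, its nearest relative, rose from 28.5 ± 1.8 FPKM in WT to 38.6 ± 0.55 and 37.2 ± 0.68, and the catalytic gene Prkacb rose from 6.69 ± 0.87 to 14 ± 0.96 and 11.8 ± 0.32. The PKA inhibitor gene Pkib rose from 0.827 to 1.46 and 2.85 FPKM. Pkig, another inhibitor gene, fell in D272Mut, from 33.2 ± 0.80 to 26.1 ± 2.0 FPKM, and at 30.3 ± 1.9 in GTMut did not pass. Summed over 4 regulatory genes the level was 93.7 ± 2.8 FPKM in WT, against 102 ± 2.2 in GTMut and 100.2 ± 3.3 in D272Mut, and Prkar2b went from 17.1% of it to 11.5% and 11.2%. Summed over both catalytic genes it was 30.6 ± 0.66, 35.1 ± 1.8 and 36.4 ± 1.3 FPKM, and Prkaca went from 78.1% to 60.2% and 67.7%. The ratio of the catalytic to the regulatory sum was 0.327 ± 0.014 in WT, against 0.344 ± 0.015 in GTMut and 0.363 ± 0.0061 in D272Mut.

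Akap1, whose protein tethers PKA to the outer membrane of mitochondria (chr11:88830792-88864586, minus strand), measured 253, 246, 249 and 261 FPKM in WT, 223, 226, 221 and 227 FPKM in GTMut, and 223, 237, 230 and 226 FPKM in D272Mut. The mutant libraries were all below the WT libraries, by a small margin, and overlapped each other. The change on the log2 scale was -0.17 ± 0.03 in GTMut (limma adjusted p = 1.57e-04) and -0.14 ± 0.03 in D272Mut (adjusted p = 8.52e-04). Under quantile normalization the median of all genes shifted to -0.23 and -0.25. The changes of Akap1 became -0.10 and -0.07, below 0 as in every other alternative. Relative to that median Akap1 was 0.13 and 0.18 higher, so its direction relative to the median rests on the scaling. Relative to the same median Prkaca was 0.11 higher in D272Mut, while the other 7 genes and Prkaca in GTMut stayed below it.

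Akap7, an anchor that binds PKA at membranes near ion channels and transporters (chr10:25169090-25307870, minus strand), was another of the genes that fell in both mutants. It was at 31.3, 30.2, 30.8 and 27.9 FPKM in WT, 13.7, 13, 12.7 and 13.1 FPKM in GTMut, and 14.1, 16.4, 15.7 and 12.9 FPKM in D272Mut. All WT libraries were above all mutant libraries, and the mutants overlapped. On the log2 scale the change was -1.14 ± 0.07 in GTMut (limma adjusted p = 1.96e-09) and -0.98 ± 0.07 in D272Mut (adjusted p = 1.21e-08). The FPKM ratio of Akap1 to Akap7 was 8.42 ± 0.61 in WT, against 17.1 ± 0.54 in GTMut and 15.6 ± 1.4 in D272Mut.

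Of 9 other anchor genes tested, 5 fell and 4 rose in GTMut, and 5 fell and 3 rose in D272Mut, where 39.2% and 39.5% of all genes tested were lower and 38.3% and 36.3% higher. Akap12, a scaffold of the cell cortex that binds PKA, fell from 136 ± 5.4 FPKM to 29.1 ± 3.0 and 51.2 ± 5.9, and went from 25.1% of the summed level of 15 anchor genes to 7.96% and 12.8%. That sum was 542 ± 12 FPKM in WT, against 365 ± 5.9 in GTMut and 398 ± 18 in D272Mut, and the share of Akap1 in it was 46.6%, 61.5% and 57.6%. Akap2 fell from 55.8 ± 3.6 to 11.3 ± 0.52 and 19.1 ± 2.9 FPKM, but it shares 84.42% of its exon bases with Pakap on the same strand, so its values are uncertain. Pakap itself was listed at a mean of 0 FPKM in every genotype. Akap8l, a nuclear anchor, fell from 6.02 to 1.99 and 2.89 FPKM. Akap11, an anchor that also binds the kinase GSK3, rose from 9.02 ± 0.30 to 20.3 ± 0.70 and 14.4 ± 0.68 FPKM. Akap6, an anchor of the nuclear envelope in muscle, went in opposite directions, from 0.784 FPKM in WT to 1.64 in GTMut (log2 fold change 0.57, limma adjusted p = 8.03e-04) and 0.237 in D272Mut (-0.52, adjusted p = 0.00179). It reached 1 FPKM in GTMut libraries only, so it entered the test through the group where it was high.

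**Figure D3:**
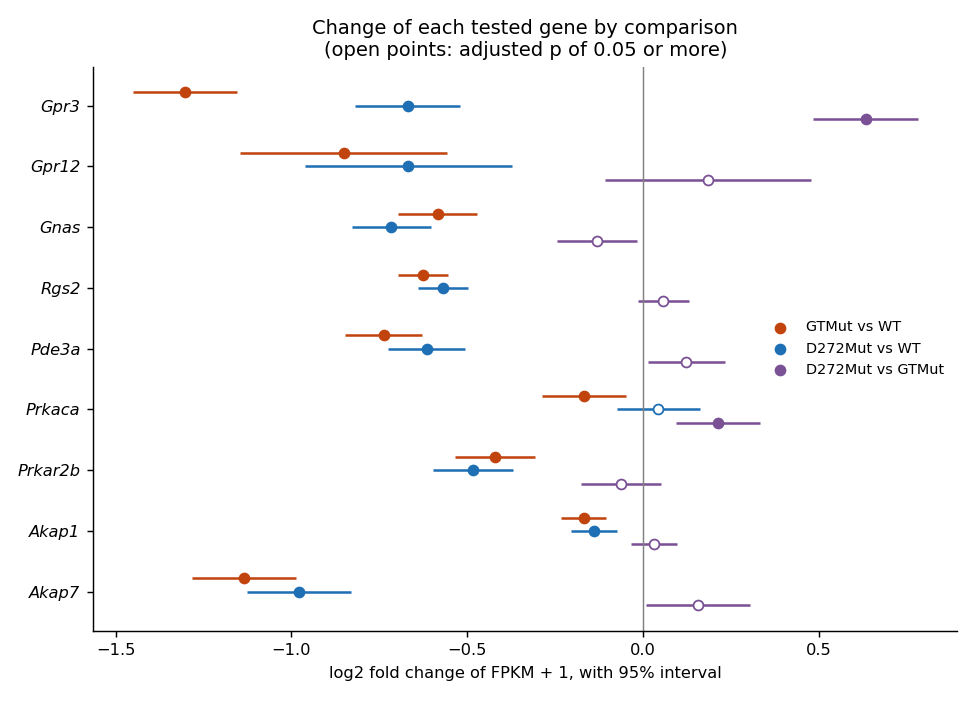
Log2 fold change of FPKM + 1 with its 95% interval for the 9 tested genes in each of the 3 comparisons, filled where the limma adjusted p was under 0.05. The comparisons with WT lie left of 0 for all but Prkaca in D272Mut, and between the mutants Gpr3 (0.63) and Prkaca (0.21) are the filled points.

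The mutants were compared directly to see which arrest genes differed between the gene trap and the D272 mutation. Of the 9 tested genes, 2 were higher in D272Mut than in GTMut and none was lower, where 19.3% of all genes tested were called higher, 20.2% lower and 39.6% in either direction. The libraries of 3 of the 9, Gpr3, Pde3a and Prkaca, did not overlap between the mutants, as in 37.4% of all genes tested. Gpr3 was 1.56 times as high in D272Mut, a log2 fold change of 0.63 with a 95% interval of 0.48 to 0.78 (limma adjusted p = 1.02e-05), and 95.1% of the genes tested had a lower fold change. Prkaca was higher by 0.21, with an interval of 0.09 to 0.33 (adjusted p = 0.00794).

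The other 7 genes did not pass between the mutants, and their intervals bound the difference. Rgs2 was at 0.06 (-0.01 to 0.13), Akap1 at 0.03 (-0.04 to 0.10), Prkar2b at -0.06 (-0.18 to 0.05) and Gpr12 at 0.18 (-0.11 to 0.48). The unadjusted intervals of Pde3a (0.12, from 0.01 to 0.23), Akap7 (0.16, from 0.01 to 0.30) and Gnas (-0.13, from -0.24 to -0.02) left out 0, with limma adjusted p of 0.0724, 0.0860 and 0.0619. Single libraries decided 2 of these: without D272Mut replicate 4 Akap7 passed at 0.22 (adjusted p = 0.0154), and without D272Mut replicate 2 Gnas passed at -0.15 (adjusted p = 0.0461). In the authors' deposited table, made with cuffdiff, the same 2 genes were called between the mutants, Gpr3 at a log2 ratio of 0.65 and Prkaca at 0.23 (q-values 0.000249 and 0.0275), where the authors' deposited table called 17.6% of the 12980 genes higher and 17% lower. Against WT the authors' deposited table called 7 of the 10 genes lower in each mutant, without Adcy3, Prkaca and Akap1, where the authors' deposited table called 34.3% of the 12980 genes lower and 34.8% higher in GTMut, and 33% lower and 33% higher in D272Mut. For Akap1 the q-value in the authors' deposited table was 0.063 in GTMut and 0.335 in D272Mut.

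Downstream of cAMP and beside PKA, genes of the wider list changed in both directions. Of its 91 genes besides the 10, 90 were in the table and 63 passed the filter, 3 of them through WT alone and 7 through the mutants alone. In GTMut 23 rose, 29 fell and 11 did not pass, and in D272Mut 25 rose, 29 fell and 9 did not pass, where 38.3% of all genes tested were higher and 39.2% lower in GTMut, and 36.3% and 39.5% in D272Mut. Under quantile normalization the split was 18 higher and 35 lower in GTMut, and 20 and 36 in D272Mut, and that of all genes tested moved likewise, to 4105 higher and 6369 lower in GTMut, and 3865 and 6471 in D272Mut. The median log2 fold change of the 63 was -0.13 in each mutant. At least 2-fold on the log2(FPKM + 1) scale, 10 rose and 9 fell in GTMut, and 11 rose and 3 fell in D272Mut. By the same measure 19.3% of all genes tested rose and 9.61% fell in GTMut, and 17.9% rose and 5.9% fell in D272Mut.

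**Figure D4:**
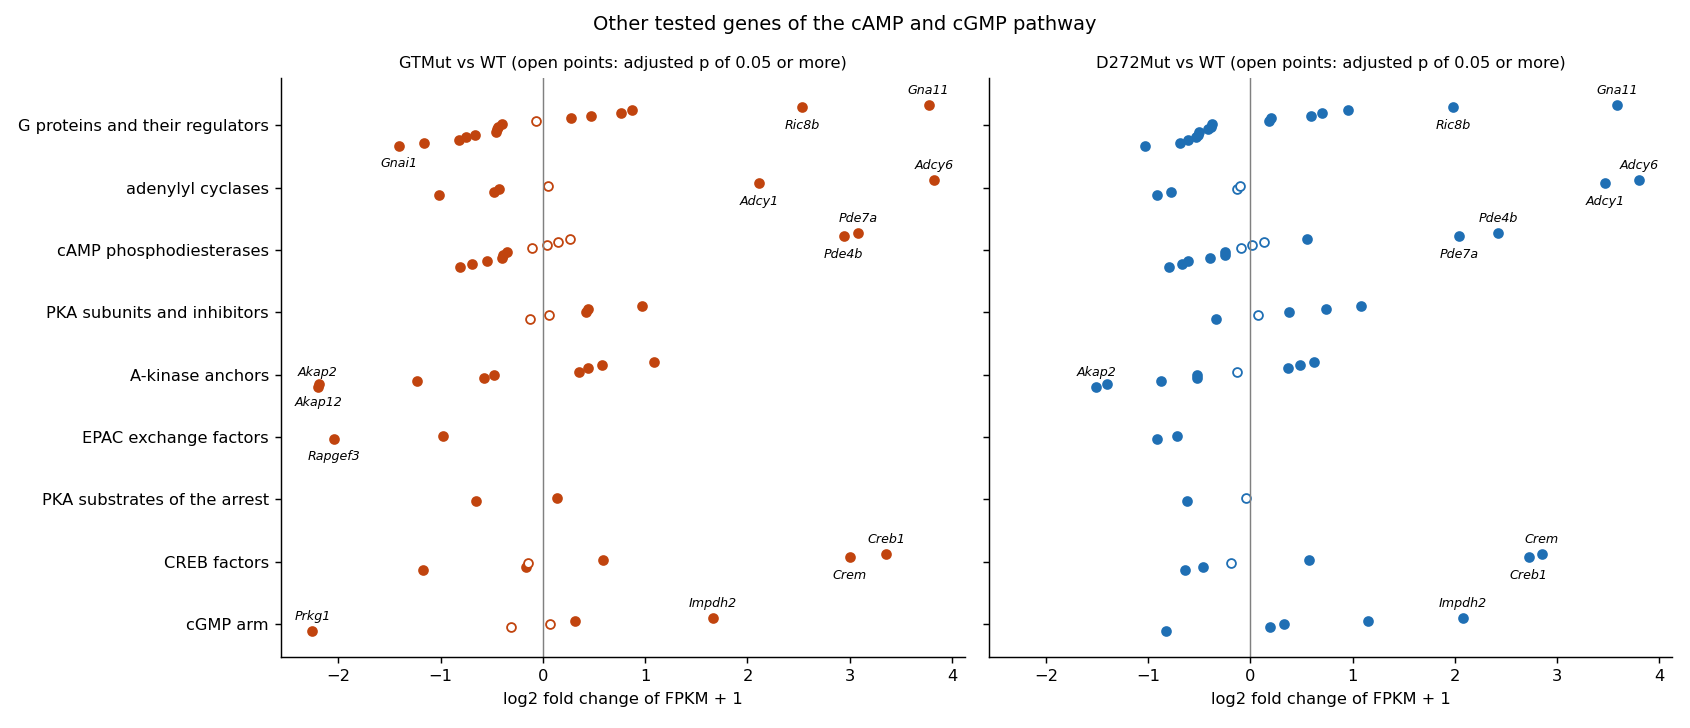
Log2 fold change of FPKM + 1 against WT for the other tested pathway genes, by role, with open points for a limma adjusted p of 0.05 or more. Each role with more than 2 genes has points on both sides of 0, and the largest changes to the right are those of Adcy6, Gna11, Adcy1, Creb1, Crem, Pde7a and Pde4b.

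The PKA substrates of the arrest divided. Wee2, the oocyte kinase that holds CDK1 off when PKA is active, fell from 158 ± 2.3 FPKM in WT to 99.9 ± 3.6 in GTMut and 103 ± 3.5 in D272Mut (log2 fold changes -0.66 and -0.62, limma adjusted p = 5.54e-10 and 1.34e-09). Cdc25b, the phosphatase that turns CDK1 on, was at 35.5, 39.2 and 34.4 FPKM. It rose by 0.14 in GTMut (limma adjusted p = 0.0166) and did not pass in D272Mut.

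Among the CREB factors, 3 of 6 tested rose and 2 fell in each mutant, so 5 of the 6 were called, beside 77.5% and 75.7% of all genes tested. Creb1 rose from 0.603 to 0.731 FPKM in the WT libraries to between 14.4 and 17.4 in GTMut and between 9.28 and 10.5 in D272Mut. It reached 1 FPKM in mutant libraries only, so it entered the test through the groups where it was high. Crem, a relative that also yields a repressor, rose from 0.659 to 1.53 FPKM in WT to between 13.4 and 17.6 and between 13 and 16.2. Atf1, the third member of the family, went the other way, from 37.9 ± 1.2 to 16.3 ± 1.8 and 24 ± 1.2 FPKM. In WT Atf1 was thus the most abundant of the 3 per length, and in GTMut all 3 had means between 15.8 and 16.3 FPKM.

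Both genes of the EPAC proteins, exchange factors that bind cAMP independently of PKA, fell in both mutants. Rapgef3 went from 6.12 ± 0.34 FPKM to 0.731 ± 0.064 in GTMut and 2.79 ± 0.45 in D272Mut, and Rapgef4 from 4.84 to 1.98 and 2.55. In the cGMP arm 5 genes were tested, of which 2 rose and 1 fell in GTMut, and 4 rose and 1 fell in D272Mut, where 38.3% and 36.3% of all genes tested were higher and 39.2% and 39.5% lower. Prkg1, a kinase activated by cGMP, fell from 11.1 ± 0.69 to 1.55 ± 0.22 and 5.87 ± 0.57 FPKM. Impdh2, an enzyme of guanine nucleotide synthesis, rose from 0.168 to 2.67 and 3.94 FPKM. It too reached 1 FPKM in mutant libraries only and entered the test through the groups where it was high. Gja4, the gap junction protein between oocyte and cumulus cells, was at 1014 ± 20, 1064 ± 63 and 1154 ± 35 FPKM and rose in D272Mut. Gja1, the gap junction protein of granulosa cells, was at 0.859, 0.507 and 3.30 ± 1.5 FPKM, and rose in D272Mut. The granulosa marker sum without Nr5a2 was also highest in D272Mut. Gja1 is itself a part of that sum, so the 2 are not independent. The part of granulosa cell RNA in the rise of Gja1 was not tested.

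Between the mutants, 21 of the 63 were higher in D272Mut, 14 were lower and 28 did not pass, where 19.3% of all genes tested were higher and 20.2% lower. Rapgef3, Prkg1 and Akap12 were nearer to WT in D272Mut than in GTMut, with log2 fold changes between the mutants of 1.12, 1.43 and 0.79 (limma adjusted p = 9.74e-07, 3.97e-08 and 4.93e-06). Gpr3 shared that order of genotypes, whereas Adcy1 was farther from WT in D272Mut.

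**Figure D5:**
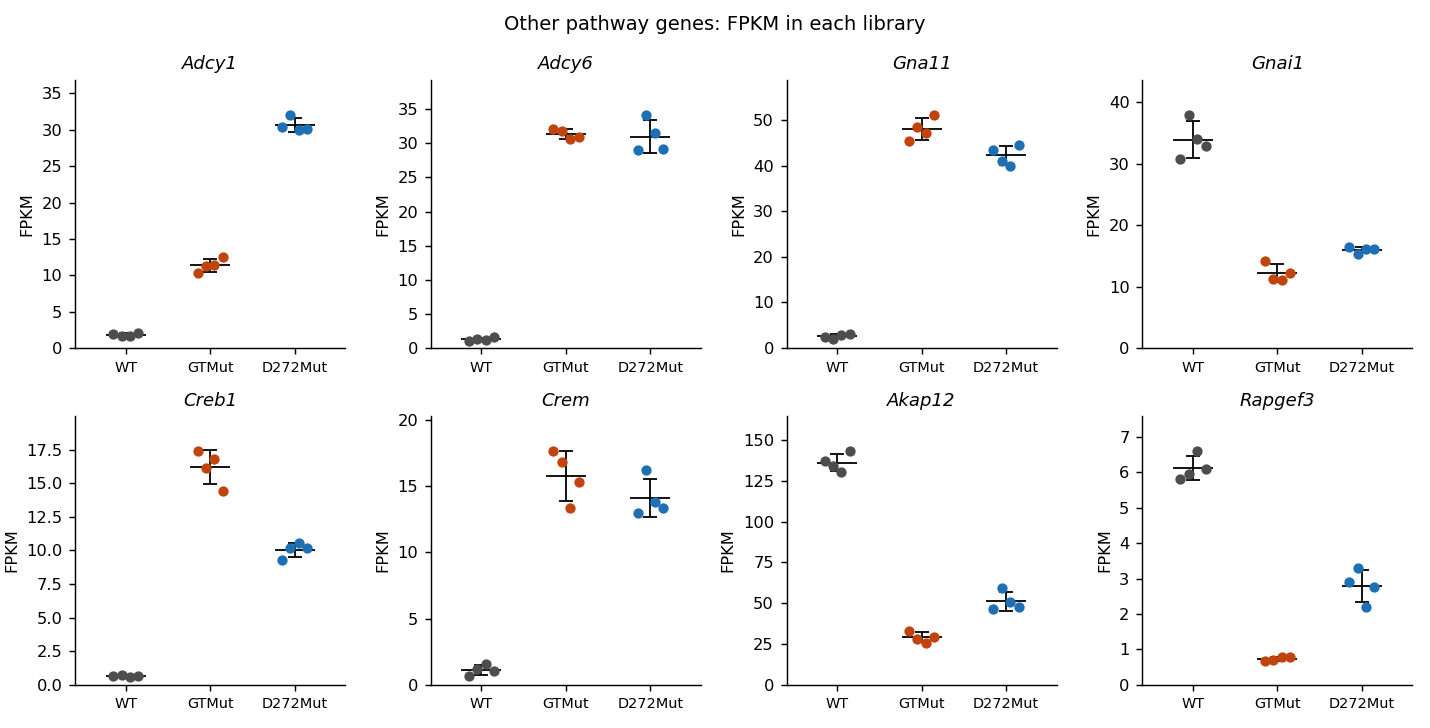
FPKM in each library of 8 other pathway genes, with the mean ± SD of the 4 libraries of each genotype. Adcy1, Adcy6, Gna11, Creb1 and Crem lie near 0 in WT and above 9 FPKM in every mutant library, and Gnai1, Akap12 and Rapgef3 are lower in every mutant library than in any WT library.

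The order of the 10 genes by FPKM changed little between genotypes. In WT it ran from Rgs2 through Akap1, Gpr3, Gnas, Pde3a, Akap7, Prkaca, Prkar2b and Gpr12 to Adcy3, and no neighbours in this order overlapped. In GTMut Gpr3 stood below Gnas and Akap7 below Prkaca, and Rgs2 and Akap1 overlapped. In D272Mut Gpr3 stayed above Gnas, Akap7 was below Prkaca, and Rgs2 overlapped with Akap1 and Pde3a with Prkaca.

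As a description of what else shared these patterns, the genes with the highest Pearson correlation to Gpr3 and to Pde3a over the 12 libraries were taken from 7691 genes with a mean of at least 5 FPKM. The libraries fall into 3 genotypes, so such a correlation mostly reflects the order of the genotype means. For Gpr3 they were Eps8 (r = 0.992), Unc13c (0.992) and Hif1a (0.991). Eps8, an actin regulator, had means of 57.0, 23.4 and 33.6 FPKM in WT, GTMut and D272Mut, Unc13c, a vesicle priming factor, 21.8, 6.58 and 10.8, and Hif1a, a transcription factor of the hypoxia response, 73.6, 46.8 and 57.9. For Pde3a they were Arhgef7 (r = 0.996), Pced1b (0.995) and Mpp5 (0.994). Arhgef7 had means of 55.4, 30.8 and 33.8 FPKM, Pced1b 79.0, 33.6 and 39.2, and Mpp5, a cell polarity scaffold, 21.9, 8.75 and 9.90.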

How the data were processed

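RNA-seq of pooled oocytes was analysed from the authors' table. Reads were aligned to mm10 with TopHat2 2.0.13, per the submitters' processing notes, and the authors made the deposited FPKM values with Cufflinks 2.2.1. Log2 ratios, p-values and q-values in the authors' deposited table came from Cuffdiff and were used only beside the tests made here. The labels name both Smart-seq2 amplification and a fragmentation and random priming kit, and both lysed ovaries and collected oocytes. Whether counting used strand is not stated by any source used here. The header stands 1 place to the left of the data, which was checked on the authors' ratios, and 1 line without content was not analysed here, nor was Ric8a of the wider list.

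Here, log2(FPKM + 1) of the 12980 genes with at least 1 FPKM in any library was fitted over all 12 libraries with limma 3.58.1 in R 4.3.3, and two-sided p-values were adjusted by Benjamini-Hochberg over all of them. A call is an adjusted p under 0.05. The fit was tested on simulated data. The 10 genes and the wider list of 91 were chosen with earlier results of these data known. All 10 were named. From the wider list, genes called with a log2 change of at least 1 in either direction were named (at most 4 per role and comparison), and those needed for the makeup of a family. Gpr6, Gnai2, Gnai3, Rgs7, Rgs9, Pde1a, Wee2, Cdc25b, Rapgef4 and Gja4 were described outside this rule. These were left out of the promoter search and of the search for outlying libraries. Exon overlaps came from GENCODE M21 on GRCm38, and tables were made with Python 3.11.15 and figures with matplotlib 3.10.9. FPKM keep no totals. Depth relative to the deepest library lay between 0.613 and 0.944 in WT, between 0.556 and 1 in GTMut, and between 0.444 and 0.837 in D272Mut. Within a genotype, libraries correlated at 0.965 to 0.99. Alternatives were a pseudocount of 0.1, 2 other filters, 2 other scalings, a fit of the compared genotypes only, a replicate block and leaving out each library.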

Additional observations from a re-analysis of the deposited data

Results flagged for a closer look

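In 8 of the 144 groups of 4 libraries examined (48 genes in 3 genotypes, 5.56%), the highest or lowest library stood far from the others by Dixon's criterion, and chance flags about 5% of such groups. Gpr3 in WT replicate 2 was at 151 FPKM, with the others at 158 to 159. Prkar2b in WT replicate 3 was at 15.3 FPKM, with the others at 16.3 to 16.4. In D272Mut replicate 2, Adcy9 was at 5.37 FPKM (others 4.53 to 4.65), Akap11 at 15.4 (others 14 to 14.1) and Pde4a, a cAMP phosphodiesterase gene, at 2.51 (others 1.92 to 2.02). Pde2a, a phosphodiesterase gene stimulated by cGMP, was at 0.119 FPKM in D272Mut replicate 4, with the others at 0.371 to 0.416. In GTMut, Akap2 was at 10.6 FPKM in replicate 4 (others 11.5 to 11.7) and Pde7a at 9.98 in replicate 3 (others 8.30 to 8.53).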

How the results depend on the processing

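Of 402 recomputed values for the 9 tested genes, 396 kept their direction and their side of the threshold. The exceptions under other scalings and left-out libraries were Prkaca, which turned to -0.14 in D272Mut against WT under quantile normalization and missed the threshold at -0.13 in GTMut under median-ratio rescaling, and, between the mutants, Gnas (-0.14) and Pde3a (0.16), which passed under quantile normalization, besides Akap7 and Gnas without the single libraries named above. Quantile normalization thereby gave 4 calls between the mutants in place of 2. The other pathway genes called numbered 34 in each mutant against WT when a mean of 5 FPKM was required, as fewer genes were tested (39), against 52 and 54. Leaving out each library gave 9, 8 and 2 to 3 calls among the 9 genes in the 3 comparisons, 48 to 52, 52 to 54 and 29 to 35 among the other pathway genes, and 9782 to 9836, 9531 to 9668 and 4542 to 4844 among all genes. The replicate numbers were shared between genotypes, but the deviations of same-numbered libraries correlated at -0.357 to 0.0358 for GTMut and WT, -0.0797 to 0.094 for D272Mut and WT, and -0.0439 to 0.0826 between the mutants, and 1, 4 and 2 of 8 libraries correlated best with their own number, so the numbers were not taken as pairs. With the replicate block the calls were 9, 8 and 2 among the 9 genes, 52, 53 and 33 among the other pathway genes, and 10007, 9771 and 4931 among all genes. FPKM keep no totals, so no counting error can be given, and values under 1 FPKM, as for Gpr12 and Adcy3, are the least certain.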
